A study of Drosophila melanogaster with 3 samples.

Results

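Nerfin-1 summits were examined where 2 protein-coding genes start close together and are read away from each other. Of the summits on the list thresholded for reproducibility (irreproducible discovery rate, IDR), 1061 lay within 500 bp of a protein-coding transcription start site (TSS) that has a TSS of another protein-coding gene on the opposite strand within 500 bp. They made up 15.04% of the list (95% Wilson interval 14.2 to 15.9). A further 2256 summits lay within 500 bp of a TSS with no such neighbour, called single-direction promoters here, and 3739 had no protein-coding TSS within 500 bp, which accounts for the whole list. No signal value entered the choice of members within the IDR list, which is itself the strongest part of the pooled list. The TSSs came from the Ensembl annotation of BDGP6, which has the coordinates of dm6. Of the members, 1026 belonged to head-to-head pairs, in which the TSSs face away from each other across a shared stretch, and 35 to pairs whose 5′ ends overlap. Intervals given for shares of summits, pairs or genes cover counting error only and treat them as independent, although 103 members shared a peak interval with another summit.

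The ChIP-seq samples were whole Drosophila melanogaster embryos of both sexes, 4 to 16 h old, from a line stably expressing nerfin-1 with GFP fused to its C terminus, and the GFP tag was precipitated. There were 3 biological replicates of this 1 group and no other genotype, so comparisons were made between kinds of promoter and between replicates. Whole embryos mix all tissues, and the labels do not say whether the untagged nerfin-1 gene was still present. Sites were listed as peaks with a summit and a signal value, without read counts, so depth was unknown. Each replicate list held 30000 peaks and was reduced to as many of its strongest peaks by signal as the IDR list holds, called the strongest peaks here. Replicate 2 stood apart from replicates 1 and 3 in several of the measures below, so values are given for each replicate.

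Nerfin-1 is a zinc-finger protein of newly born neurons, related to vertebrate INSM1, and is known to hold neurons in their differentiated state together with the TEAD factor Scalloped. The fly genome is compact, and many neighbouring genes start head to head from 1 open stretch of chromatin. Such pairs often encode proteins that most cells need, and in Drosophila their promoters are known to be rich in the sites of DREF and BEAF-32, which bind TATCGATA and CGATA.

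The stretches between the TSSs show what a summit here looks like in sequence. The 4 strongest summits at pairs with TATCGATA between the TSSs and the 4 strongest at pairs without it were taken, for pairs 60 to 300 bp apart with no annotated exon between them. Each stretch runs 5′ to 3′ on the plus strand of the RefSeq release 6 genome, with the TSS of the first-named gene, on the minus strand, just before its first base and the TSS of the other gene just after its last. Capitals mark TATCGATA, the TATA box TATAAA and CATTCC, the Scalloped word, on either strand. The strongest member of the IDR list, between Art3, a protein arginine methyltransferase, and mRpS10, of the small mitochondrial ribosomal subunit, held none of them across chr3R:15229409-15229664, and its summit was at base 123.
Art3/mRpS10: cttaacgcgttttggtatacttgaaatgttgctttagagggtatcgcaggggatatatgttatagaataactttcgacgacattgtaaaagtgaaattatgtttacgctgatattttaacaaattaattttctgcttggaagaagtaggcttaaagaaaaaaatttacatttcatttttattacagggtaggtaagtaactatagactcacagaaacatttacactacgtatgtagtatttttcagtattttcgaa
The stretch between CG13390 and CG17294, chr2L:8376798-8377034, had its summit at base 90, which falls in TATAAA.
CG13390/CG17294: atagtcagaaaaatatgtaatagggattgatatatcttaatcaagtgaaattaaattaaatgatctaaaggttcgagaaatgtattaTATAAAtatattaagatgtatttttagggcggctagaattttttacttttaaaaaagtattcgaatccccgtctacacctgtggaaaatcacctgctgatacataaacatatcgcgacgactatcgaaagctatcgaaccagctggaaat
The stretch between rb, an AP-3 adaptor subunit, and CHOp24, chrX:4540627-4540907, held CATTCC on the minus strand and had its summit at base 125.
rb/CHOp24: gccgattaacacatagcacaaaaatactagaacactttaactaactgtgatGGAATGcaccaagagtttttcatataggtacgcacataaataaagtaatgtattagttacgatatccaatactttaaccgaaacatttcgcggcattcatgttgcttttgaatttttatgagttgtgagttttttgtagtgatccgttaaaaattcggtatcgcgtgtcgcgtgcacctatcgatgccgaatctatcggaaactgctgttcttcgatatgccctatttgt
Between Slu7, a splicing factor, and Pkc98E, a protein kinase C, chr3R:29039072-29039155 held none of the words, and the summit lay outside it at position 29039431.
Slu7/Pkc98E: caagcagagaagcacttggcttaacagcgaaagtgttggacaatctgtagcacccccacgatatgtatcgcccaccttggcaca
Of the stretches with TATCGATA, that between Cog4, of the Golgi tethering complex COG, and CG6144, chr2L:10488623-10488693, held CATTCC as well and had its summit at base 36, inside TATCGATA.
Cog4/CG6144: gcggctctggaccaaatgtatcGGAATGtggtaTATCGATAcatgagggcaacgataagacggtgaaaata
The stretch between CG13603 and CG5902, chr3R:23986570-23986641, had its summit at base 20, ahead of the word.
CG13603/CG5902: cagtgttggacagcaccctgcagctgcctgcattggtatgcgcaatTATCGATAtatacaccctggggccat
Between Rab30, a small GTPase, and Caper, a splicing factor, chr2L:7032607-7032720 held the word, and the summit lay to its left at position 7032592, outside the stretch.
Rab30/Caper: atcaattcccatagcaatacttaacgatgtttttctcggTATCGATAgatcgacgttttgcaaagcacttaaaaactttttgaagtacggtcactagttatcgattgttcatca
The longest stretch with TATCGATA, between CG10628 and Dus3, a tRNA-dihydrouridine synthase, chr2L:19758616-19758878, had its summit at base 109, away from the word near its right end.
CG10628/Dus3: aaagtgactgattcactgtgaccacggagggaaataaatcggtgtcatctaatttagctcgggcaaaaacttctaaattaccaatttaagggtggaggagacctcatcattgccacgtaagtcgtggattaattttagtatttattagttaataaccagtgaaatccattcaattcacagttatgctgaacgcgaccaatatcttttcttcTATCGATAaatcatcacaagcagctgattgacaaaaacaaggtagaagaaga

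The tally of words across all members is given further on. In these 8 stretches the summit fell inside a marked word in 2 cases, and a stretch without any marked word carried the strongest member.

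Summits were denser in divergent than in single-direction promoter sequence. Divergent pairs took 31.99% of all promoter summits (95% Wilson interval 30.4 to 33.6), while their TSS windows made up 15.4% of the promoter sequence. The IDR list held 451 summits per Mb of divergent promoter sequence and 174 per Mb of single-direction promoter sequence, a ratio of 2.59. In replicates 1, 2 and 3 the numbers at divergent pairs were 914, 1215 and 942, against 2369, 2199 and 2324 at single-direction promoters. Replicate 2 had the most summits at divergent pairs and the fewest at single-direction promoters. The density ratio was 2.13, 3.05 and 2.23 in replicates 1, 2 and 3, with a mean of 2.47 ± 0.502 (SD, n = 3), so that it was above 1 in every replicate. Over IDR summits matched in replicates 1 and 3, leaving out replicate 2, the ratio was 2.18. The exact two-sided sign-flip permutation test over the 3 replicates gave p = 0.25, the smallest value this design allows, so no comparison here can pass 0.05. Single-direction promoters include those of genes not transcribed at this stage, and transcription was not measured here. Among the 22944 pooled peaks that were weaker than those of the IDR list, 1105 lay at divergent pairs and the density ratio was 1.41.

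**Figure D1:**
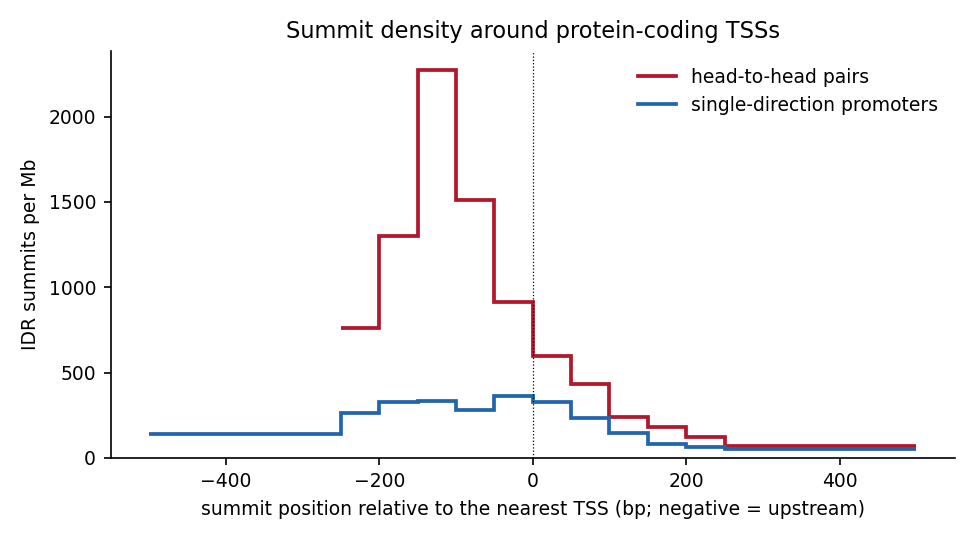
Nerfin-1 summits per Mb of promoter sequence (vertical axis) by position relative to the nearest TSS in bp (horizontal axis, upstream to the left), at head-to-head pairs and at single-direction promoters. The density at head-to-head pairs was highest 101 to 150 bp upstream of the TSS, at 2276 summits per Mb, against 335 per Mb at single-direction promoters, and the line ends 250 bp upstream, past which the other TSS of the pair is nearer.

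Members ran through the whole range of signal, with a larger share at the strong end. The strongest was ranked 20, the median member 3083 and the weakest 7053. Members made up 21 of the 100 strongest summits and 192 of the 1000 strongest. With the list split by signal into 10 equal classes, the share of members was 20.5% in the strongest class and 10.8% in the weakest. Among promoter summits alone their share was 35.4% in the strongest class and 25.5% in the weakest. It did not fall steadily between them, with 35.9% in class 3. The median rank percentile, where 0 is the strongest, was 43.7 for members and 47.9 for single-direction promoter summits. It was 45.4, 40.2 and 48.5 for members of replicates 1, 2 and 3, against 47.2, 49.0 and 47.1 for single-direction promoter summits. Members were thus stronger in replicates 1 and 2 and weaker in replicate 3, and the mean difference of -3.03 ± 5.20 percentile points (SD, n = 3) was smaller than the spread between replicates (exact permutation test, p = 0.5).

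A promoter-proximal summit was found at 1920 of the 3778 genes that belong to a divergent pair, 50.8%, and at 1858 of the 10167 single-direction genes, 18.3%. The share over all 13945 protein-coding genes was 27.1%. In replicates 1, 2 and 3 the share was 43.2%, 56.8% and 44.3% for genes of pairs, with a mean of 48.1% ± 7.57 (SD, n = 3), against 18.3%, 18.6% and 18.2% for single-direction genes, with a mean of 18.3% ± 0.192. The shares of the 2 kinds of gene did not overlap, and those of single-direction genes hardly varied between replicates. A gene of a pair counts the summits of its neighbour when they fall within 500 bp of its own TSS, so both genes of 1 pair are often scored by 1 summit. The number of TSSs per gene also sets how much sequence is searched, and among genes with 1 annotated TSS the share was 45.5% for 2602 genes of pairs and 12.8% for 7644 single-direction genes. Single-direction genes with a same-strand neighbour TSS within 500 bp, a comparison added after values were seen, had a summit in 34.7% of 531 cases. Those with an opposite-strand non-coding TSS within 500 bp, added likewise, had one in 27.9% of 394 cases. Both shares lay between that of pair genes and that of all single-direction genes. These groups had means of 1.67 and 1.84 TSSs per gene, against 1.46 for pair genes and 1.38 for all single-direction genes. The part of TSS number in their shares was not tested.

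Counted by pair, 932 of 1907 annotated divergent pairs held at least 1 member, 48.9% of them. Most, 812, had a single summit, 111 had 2 and 9 had 3. Replicates 1, 2 and 3 had a summit at 796, 1039 and 821 pairs, which is 46.4% ± 7.01 of pairs (SD, n = 3). All 3 replicates shared 594 pairs, and 697 pairs had a summit in none. Replicate 2 stood apart, with 262 pairs that had a summit there alone, against 36 in replicate 1 alone and 60 in replicate 3 alone.

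The share of pairs with a summit changed with the distance between the TSSs, which had a median of 243 bp and quartiles of 114 and 334 bp over head-to-head pairs. The IDR list had a summit at 44.5% of 400 pairs 1 to 100 bp apart and at 41.0% of 332 pairs 101 to 200 bp apart. It was highest, 58.6%, for the 500 pairs 201 to 300 bp apart. It came to 52.5% of 364 pairs at 301 to 400 bp and 44.9% of 236 pairs at 401 to 500 bp. Of the 75 pairs with overlapping 5′ ends, 37.3% had one.

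This pattern over distance was mostly that of replicate 2. At pairs 1 to 100 bp apart the replicates were alike, with a summit at 43.3%, 43.8% and 45% of pairs in replicates 1, 2 and 3. At 101 to 200 bp the shares were 35.8%, 42.8% and 38.0%, with replicate 2 the highest. At 201 to 300 bp the shares were 48.0%, 66.4% and 50%, and at 301 to 400 bp they were 38.5%, 64.3% and 38.7%. At 401 to 500 bp they were 39.4%, 54.7% and 38.1%, so replicate 2 exceeded the others most in the classes above 200 bp. Base composition moved with distance, since the 200 bp around the midpoint had 40.1% G+C in pairs 1 to 100 bp apart and 28.9% in pairs 301 to 400 bp apart. A split by both, added after values were seen, set the 2 apart in part. In the 806 pairs over 200 bp apart with G+C at or under the median of 33.5%, the share with a summit was 45.2%, 69.1% and 45.8% in replicates 1, 2 and 3. In the 609 pairs that were at most 200 bp apart and above that median it was 40.2%, 41.7% and 42.0%. The 123 short pairs at or under the median gave 38.2%, 51.2% and 40.7%, and the 294 long pairs above it 37.1%, 46.9% and 38.1%. Replicate 2 thus exceeded the others in 3 of the 4 classes, by most in long pairs low in G+C. The part of base composition in the difference between replicates was not tested.

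**Figure D2:**
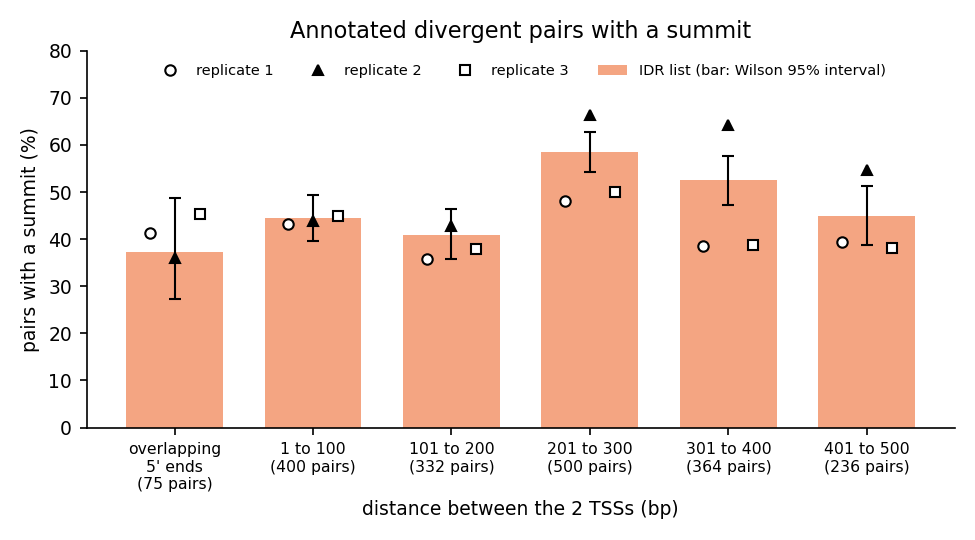
Share of divergent pairs with a summit (percent) by the distance between the TSSs in bp, for the IDR list (bars with 95% Wilson intervals over pairs) and for replicates 1, 2 and 3 (points). The replicates lie close together at 1 to 100 bp, and replicate 2 is above the others from 101 bp on, most of all above 200 bp, at 66.4% against 48.0% in replicate 1 and 50% in replicate 3 at 201 to 300 bp.

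At head-to-head pairs the summits gathered between the TSSs. Of 1026 summits, 665 lay between them, 64.8% (95% Wilson interval 61.8 to 67.7), although this stretch made up 21.2% of the sequence within 500 bp of these TSSs. The density was 1383 summits per Mb between the TSSs and 202 per Mb outside them. In replicates 1, 2 and 3 the share between the TSSs was 52.1%, 73.0% and 47.3%, with a mean of 57.5% ± 13.7 (SD, n = 3). Every replicate was above the share of sequence, and replicate 2 was the highest. Over IDR summits matched in replicates 1 and 3, leaving out replicate 2, the share was 57.6%. Among the 573 head-to-head pairs with a summit in all 3 replicates, a comparison added after values were seen, the strongest summit lay between the TSSs in 51.8%, 67.4% and 47.5% of pairs in replicates 1, 2 and 3. In those pairs the strongest summits of replicates 1 and 3 were within 100 bp of each other in 88.0% of cases, those of replicates 1 and 2 in 80.5% and those of replicates 2 and 3 in 77.3%.

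Relative to the nearest TSS, head-to-head pairs had their highest density 101 to 150 bp upstream, with 2276 summits per Mb at head-to-head pairs and 335 per Mb at single-direction promoters. The ratio there was 6.79, and 4.13, 8.14 and 3.81 in replicates 1, 2 and 3, so the value of the IDR list was nearest to that of replicate 2. Single-direction promoters had their highest density 1 to 50 bp upstream, at 363 per Mb. In the first 50 bp downstream the density was 595 per Mb at head-to-head pairs and 325 per Mb at single-direction promoters, so the excess was smaller inside the genes. The share of summits upstream of the nearest TSS was 64.3% at head-to-head pairs and 66.0% at single-direction promoters, and the upstream side held 21.0% of the searched sequence at head-to-head pairs and 48.9% at single-direction promoters. The upstream share was 51.9%, 72.7% and 47.1% at head-to-head pairs in replicates 1, 2 and 3, against 60.7%, 76.0% and 59.8% at single-direction promoters, lower at head-to-head pairs in 3 of 3 replicates. The median distance to the nearest TSS was 87 bp at divergent pairs and 141 bp at single-direction promoters. Within a head-to-head pair the nearest TSS is by construction at most 250 bp away for any summit between the TSSs.

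The median summit lay 70 bp from the midpoint between the TSSs, and 98, 64.5 and 102 bp from it in replicates 1, 2 and 3. Summits were closest to the midpoint in pairs 201 to 300 bp apart, at a median of 44.5 bp, and 81.5% of the summits of these pairs lay between the TSSs. In pairs 1 to 100 bp apart 36.0% did, and in pairs 401 to 500 bp apart 56.3% did. In the widest pairs the median distance from the midpoint was 193 bp, so summits there lay nearer to one of the TSSs than to the centre.

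**Figure D3:**
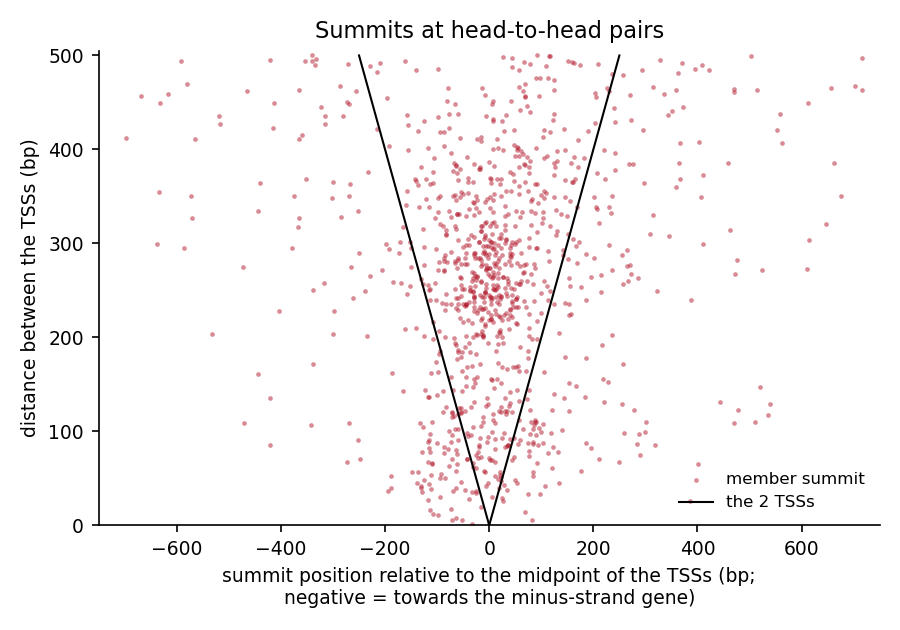
Position of each member summit at head-to-head pairs relative to the midpoint between the TSSs (bp, horizontal axis), by the distance between the TSSs (bp, vertical axis), with lines at the TSSs. Of 1026 summits, 665 lie between the lines, and in pairs 201 to 300 bp apart they crowd around the midpoint.

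Members had a match in the replicates about as often as other promoter summits, but in different replicates. The IDR list was derived from all 3 replicates, so a match in them is in part fixed by how the list was made. A member had a match, no more than 100 bp away, among the strongest peaks of replicates 1, 2 and 3 in 70.2%, 85.4% and 68.4% of cases, with a mean of 74.7% ± 9.32 (SD, n = 3). For single-direction promoter summits the shares were 80.9%, 71.7% and 77.3%, with a mean of 76.6% ± 4.65. The difference was negative in replicates 1 and 3 and positive in replicate 2, and its mean of -1.95 ± 13.6 percentage points was smaller than the spread between replicates (exact permutation test, p = 1). All 3 replicates matched 50.1% of members and 49.5% of single-direction promoter summits. Replicate 2 alone matched 17.8% of members and 10.2% of single-direction promoter summits. Replicates 1 and 3 without replicate 2 matched 8.11% of members and 19.9% of single-direction promoter summits. Among all 30000 peaks of replicates 1, 2 and 3, a match was found for 90.1%, 94.3% and 87.1% of members, so most of the unmatched ones were present at lower rank. Within 3 classes of G+C, split at 34.5% and 44.0% and added after values were seen, the difference in replicate 2 was 2.13, 9.15 and 14.02 percentage points from the lowest to the highest class. In replicate 1 it was -7.63, -11.9 and -0.477 over the same classes, and in replicate 3 it was -5.87, -4.69 and -6.21. In the lowest class replicate 2 matched 96.1% of members and 94.0% of single-direction promoter summits, which leaves little room for a difference.

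**Figure D4:**
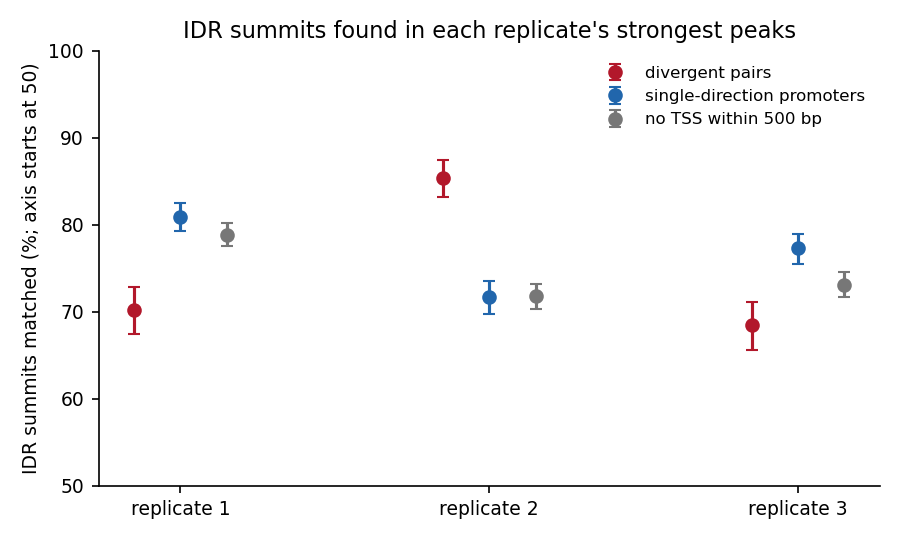
Share of IDR summits (percent) with a match no more than 100 bp away in the strongest peaks of each replicate, for divergent pairs, single-direction promoters and summits with no TSS within 500 bp, with 95% Wilson intervals over summits (the axis starts at 50%). Members are higher in replicate 2, at 85.4%, than single-direction promoter summits, at 71.7%, and lower in replicates 1 and 3.

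The strongest members belonged to genes of varied function. The summit between Art3 and mRpS10, ranked 20 in the IDR list, was ranked 63, 4 and 78 in replicates 1, 2 and 3. The summit between mRpS23, of the small mitochondrial ribosomal subunit, and CenG1A, an Arf GTPase-activating protein, was ranked 25, and 37, 28 and 33 in the replicates (2L, summit 13835481). Its TSSs were 492 bp apart, near the limit of the rule, and the 3 replicates ranked it alike. The pair of yki, the coactivator of the Hippo pathway that binds Scalloped, and Gpat4, a glycerol-3-phosphate acyltransferase, had a summit ranked 28 between its TSSs, 49 bp from that of yki (2R, summit 24068534). It was ranked 30, 23 and 55 in the replicates. Another summit, 100 bp inside the Gpat4 side, was ranked 1498 and matched in replicate 2 alone, at rank 103.

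Next came the summit at Sema1b, a transmembrane semaphorin of axon guidance, and HPS4, ranked 33 in the IDR list and 31, 68 and 27 in the replicates. It lay 253 bp from the TSS of HPS4, outside the stretch between the TSSs. The summits of CG11309/CG7632, Ufl1/CG1943, Aduk/pasi2, CG10376/CG10343, CG13390/CG17294 and Pdrg1/Pal1 completed the 10 strongest, at ranks 35 to 51. Ufl1 is a ligase for the ubiquitin-like protein UFM1, Aduk a kinase related to Unc-51, pasi2 a septate junction protein and Pal1 a peptide-amidating enzyme. In 6 of the 10 the summit lay between the TSSs. Replicate 2 ordered some of them differently. The summit of Ufl1/CG1943 was ranked 28, 163 and 15 in replicates 1, 2 and 3, and that of CG10376/CG10343 was ranked 23 and 22 in replicates 1 and 3 and unmatched in replicate 2. In the other direction, the summit between CG5611 and Mtl, a Rac-like GTPase, was ranked 170, 18 and 173. The 200 bp around the summit at Ufl1/CG1943 had 49.0% G+C, and those around the summit at CG5611/Mtl had 29.5%. At CG10376/CG10343 the value was 52.5% around the summit ranked 48 and 34.0% around that ranked 573.

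Of the 9 pairs with 3 summits each, the 5 with the best ranks were those of Pax and Alp12, of Dlc90F and its neighbour, of tank and CG12194, of Fer1HCH and Fer2LCH and of CG30394 and dom. Pax encodes paxillin, an adaptor of integrin adhesions, Dlc90F a dynein light chain and dom an ATPase of chromatin remodelling. The summits of Pax and Alp12 did not share 1 promoter. That at position 19423828 lay between TSSs 498 bp apart. Those at 19426133 and 19426332 were near other TSSs of the same genes, which overlap by 298 bp. Fer1HCH and Fer2LCH encode the heavy and the light chain of ferritin, the iron storage protein. At the ferritin pair the strongest summit was ranked 1006 and matched in replicate 2 alone, at rank 223. Its other summits, on the Fer1HCH side, were ranked 3371 and 6033, and the stronger of them was ranked 1520, 11737 and 2600 in replicates 1, 2 and 3. At the other end of the list, the 3 weakest members were at TrxT/dhd, a pair of thioredoxin genes of the germ line, La/RtGEF and Bap55/Lhr, ranked 7013, 7050 and 7053. The closest TSSs of any member were those of Atg6, an autophagy gene, and Pisd, 1 bp apart, with a summit ranked 5519. The farthest were 500 bp apart, at su(Hw)/Polr2I, ranked 185, and at Plzf/PLCXD, ranked 6393.

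The functional lists differed in how many of their genes belong to a divergent pair. The share was 39.8% of cytosolic and 72.6% of mitochondrial ribosomal protein genes, 44.4% of respiratory chain genes, 50% of proteasome genes, 40.9% of translation initiation factors, 63.6% of tRNA synthetases, 60% of RNA polymerase and Mediator genes, 34.1% of replication and cell cycle genes and 37.5% of Notch and Hippo pathway genes. Of all protein-coding genes 27.1% belong to a pair, and the neuronal, glial and muscle lists given last were below that. Over all genes of the annotation 50.8% of those in pairs and 18.3% of single-direction genes had a summit, and each group is set beside these shares without a test. The cytosolic ribosomal proteins, whose genes are among the most transcribed, had a summit at 34 of 37 genes in pairs, 91.9%, and at 43 of 56 single-direction genes, 76.8%. Their pairs had a summit in 32, 35 and 32 of 37 cases in replicates 1, 2 and 3. The best-ranked were JhI-21/RpL7-like at 167 and RpLP0-like/14-3-3zeta at 322. RpL7-like and RpLP0-like entered by symbol and are relatives of ribosomal proteins.

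Of 73 genes of mitochondrial ribosomal proteins, 53 belonged to divergent pairs. A summit was found at 32 of these 53, 60.4%, and at 4 of 20 single-direction ones, 20.0%. In replicates 1, 2 and 3 their pairs had a summit in 27, 35 and 24 of 53 cases. After the 2 strongest, already given, came mRpL23/CG9004 at rank 189. Genes of the respiratory chain and ATP synthase had a summit at 22 of 40 in pairs, 55.0%, and at 4 of 50 single-direction ones, 8%. Their pairs had a summit in 20, 23 and 12 of 40 cases in replicates 1, 2 and 3, so replicate 3 had the fewest. The leading summit was at Afti/ATPsynE, a subunit of ATP synthase, at rank 111. Those at TppII/ND-MWFE and Cchl/ND-42, subunits of complex I, followed at ranks 1141 and 1812. The summit of Cchl/ND-42 was unmatched in replicate 1 and ranked 1245 and 4156 in replicates 2 and 3.

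RNA polymerase and Mediator subunits had a summit at 20 of 33 genes in pairs, 60.6%, and at 5 of 22 single-direction genes, 22.7%. Their leading summits were at su(Hw)/Polr2I, where the partner encodes an insulator protein, at Polr2J/CG15141, ranked 263, and at Polr3D/mus304, ranked 470. The summit of Polr3D/mus304 was ranked 470, 470 and 680 in the replicates. Aminoacyl-tRNA synthetases, which load tRNAs with amino acids, had a summit at 12 of 21 genes in pairs, 57.1%, and at 4 of 12 single-direction genes, 33.3%. AsnRS, SerRS and IleRS led with ranks 687, 876 and 887. Proteasome subunits had a summit at 12 of 24 genes in pairs, 50%, and at 5 of 24 single-direction genes, 20.8%. Their leading members Rpn3, Rpn6 and Rpn5, of the regulatory particle, were ranked 2485, 2605 and 3164, well below those of the groups above. Translation initiation factors had a summit at 8 of 18 genes in pairs, 44.4%, and at 9 of 26 single-direction genes, 34.6%. Counted by pair, a member was present at 6 of their 19 pairs, 31.6%, against 48.9% of all annotated pairs. Their summits were led by eIF4EHP/CG18428, a repressor that binds the mRNA cap, at rank 61. RpL28/eIF1 followed at 1019 and eIF3a/CG1074 at 1775.

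Replication and cell cycle genes had a summit at 6 of 14 in pairs, 42.9%, and at 13 of 27 single-direction ones, 48.1%. The summits were at dup/SRPK, whose dup gene encodes the licensing factor Cdt1, ranked 984, at CG3281/aurA, the Aurora A kinase, ranked 2457, and at Cdk1/mRpS7, the mitotic kinase, ranked 3400, among others. The last 2 were ranked best in replicate 2 and far lower in the others. Among all 30000 peaks of replicates 1, 2 and 3, CG3281/aurA was ranked 8594, 1438 and 15825. Cdk1/mRpS7 was ranked 23017, 1777 and 6577. Notch and Hippo pathway genes had a summit at 5 of 9 in pairs, 55.6%, and at 11 of 15 single-direction ones, 73.3%. Counted by pair, a member was present at 4 of their 9 pairs, 44.4%, against 48.9% of all annotated pairs. Besides yki, the summit at RN-tre/mam, where mam encodes the Notch coactivator Mastermind, was ranked 2675 and unmatched in replicate 2.

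Only 2 of 42 neuroblast and neuron identity factors belonged to a divergent pair, 4.76%, against 27.1% of all protein-coding genes. Both pairs had a summit in the IDR list and in all 3 replicates. They were brat, a translational repressor that limits neuroblast self-renewal, whose partner Polr1D encodes a polymerase subunit, at rank 626, and aPKC, the polarity kinase of neuroblasts, with ckn at rank 3417. The summit of Polr1D/brat was ranked 648, 669 and 706 in the replicates, and that of aPKC/ckn 5152 and 2142 in replicates 1 and 2, with no match within 100 bp in replicate 3. Of the 40 single-direction genes of this list 23 had a summit, 57.5%. Genes of mature neuron function were in pairs in 2 of 18 cases, glial genes in 2 of 11 and muscle and mesoderm genes in 1 of 12. None of these 5 genes had a summit in the IDR list, while 3 of 16, 5 of 9 and 1 of 11 of the single-direction genes in the same lists did. Which gene of a pair a summit bears on cannot be read from its position.

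Members differed from single-direction promoter summits in the words near them. TATCGATA, the site of DREF, was found within 50 bp of 51 members, 4.81%, against 2.22% of single-direction promoter summits and 0.160% of summits with no TSS near. In replicates 1, 2 and 3 its share was 4.16%, 5.43% and 4.03% at divergent pairs and 2.11%, 3.46% and 1.76% at single-direction promoters. The excess was present in 3 of 3 replicates, with a mean of 2.10 ± 0.153 percentage points (exact permutation test, p = 0.25). Its size depended on the definitions, from 1.40 with the 5′-most TSS of each gene to 5.68 in the 100 bp centred on the TSS, with 4.21 for opposite TSSs within 250 bp and 4.39 for a word within 100 bp of the summit. CGATA, which BEAF-32 binds and which TATCGATA contains, was found at 25.4% of members and 17.2% of single-direction promoter summits. GGTCACAC, the core of Ohler motif 1 that M1BP binds, was found at 2.83% of members and 2.04% of single-direction promoter summits. TATAAA was at 20.7% of members and 15.7% of single-direction promoter summits.

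The remaining words were not more frequent at members in every replicate. GAGAGA, the site of GAGA factor, was found at 1.89% of members and 7.14% of single-direction promoter summits, a difference of -6.25, -3.15 and -7.05 percentage points in replicates 1, 2 and 3. TCAGT, the initiator, was at 13.4% of members and 16.8% of single-direction promoter summits. CATTCC, the Scalloped site, was at 5.75% of members and 6.47% of single-direction promoter summits, and the E-box CACGTG was at 1.41% of members and 1.55% of single-direction promoter summits. CAGGGGG, part of the motif of vertebrate INSM1, was at 5 members, 0.471%, and 8 single-direction promoter summits, 0.355%. CAGGTAG, the Zelda site, was at 3 members, 0.283%, and 12 single-direction promoter summits, 0.532%. The words of GAGA factor, the initiator, Scalloped and Zelda were lower at members in 3 of 3 replicates, while the sign differed between replicates for the E-box and the INSM1 word. The INSM1 and Zelda words were too rare to compare. All 10 words were sought on both strands, and a match is a run of letters, not a bound site.

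TATCGATA was more frequent in divergent promoters also where no summit was used to place the window. In the 100 bp at the midpoint of all 1907 pairs it was found at 6.24%, against 2.80% of the 100 bp at all single-direction TSSs. At midpoints it was found in 5.79% of pairs with a member and in 6.67% of pairs without one, and at single-direction TSSs in 5.16% with a summit and in 2.30% without one. Between midpoints and single-direction TSSs with a summit the difference was thus small, but these windows lie at unlike positions. In the 100 bp centred on the TSS nearest each summit, for both kinds of promoter, it was 5.68 percentage points (mean of 3 replicates). Over all promoters CGATA was found at 27.0% of pair midpoints and 19.5% of single-direction TSSs, and GGTCACAC at 3.36% and 3.16%. Among promoters with a summit CGATA was at 24.6% of pair midpoints and 24.7% of single-direction TSSs. For GGTCACAC these shares were 2.79% and 6.32%. The excess of both words around members was thus not seen between midpoints and single-direction TSSs with a summit, which are unlike positions. Counting the whole stretch between the TSSs of head-to-head pairs, a summit was present at 176 of 309 pairs with TATCGATA, 57.0% (95% Wilson interval 51.4 to 62.4), and at 728 of 1523 pairs without it, 47.8% (45.3 to 50.3). The stretches with the word were longer, at a median of 271 bp against 238 bp, and the part of length was not tested. The shares were 46.0%, 64.1% and 46.3% with the word and 40.9%, 53.4% and 42.3% without it in replicates 1, 2 and 3, higher with the word in each replicate. For GAGAGA the order was the reverse, with a summit at 31.8% of 107 pairs that held it and 50.4% of 1725 that did not.

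**Figure D5:**
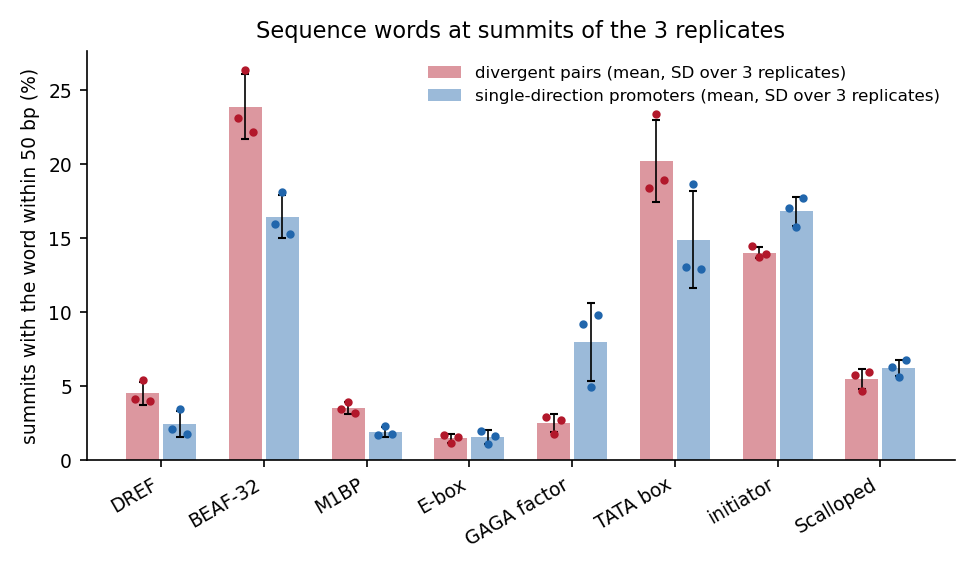
Share of summits (percent, vertical axis) with a word within 50 bp, for the 8 words named after the factor or element that binds or holds them, at divergent pairs (left bars) and single-direction promoters (right bars). Bars are means over 3 replicates with SD, and points are replicates. All 3 points of DREF, BEAF-32 and M1BP are higher at divergent pairs than the single-direction point of the same replicate, and those of GAGA factor are lower.

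Members lay in sequence low in G+C. The 200 bp around a member had 36.6% G+C on average, against 40.6% at single-direction promoter summits, 40.0% at summits with no TSS near and 42.2% over the 6 arms analysed. In replicates 1, 2 and 3 the averages were 38.9%, 35.0% and 38.9% at divergent pairs and 42.7%, 37.5% and 42.9% at single-direction promoters. The difference of -3.38 ± 0.805 percentage points (SD, n = 3) had the same sign in 3 of 3 replicates (exact permutation test, p = 0.25), and replicate 2 was lower in G+C at both kinds of promoter. Midpoints of pairs with a member had 33.4% G+C and those of pairs without one 35.7%. In replicates 1, 2 and 3 midpoints of pairs with a summit had 34.1%, 32.7% and 34.1%. Those of pairs without one had 34.9%, 36.8% and 34.9%, so the gap was widest in replicate 2. The midpoints of the 262 pairs with a summit in replicate 2 alone had 30.6%, and those of the 75 pairs with a summit in replicates 1 and 3 but not 2 had 37.6%. Pairs without a summit were thus also low in G+C, and the lowest values were those of replicate 2.

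The limits of the rule cut through a continuous range. Members with the summit 451 to 500 bp from the TSS numbered 14, with a median rank of 4614, and 7 summits lay 501 to 550 bp away at promoters of such pairs, with a median rank of 2373. Members whose TSSs were 451 to 500 bp apart numbered 80, with a median rank of 3278, and 63 summits were at pairs 501 to 550 bp apart, with a median rank of 4664. By chromosome arm the members numbered 197 on 2L, 203 on 2R, 230 on 3L, 302 on 3R, 128 on X and 1 on 4. They were 17.97% of the IDR summits on 3R, 11.6% of those on X, and 14.6% to 15.03% on 2L, 2R and 3L.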

How the data were processed

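The 3 replicates were listed by the authors as narrowPeak files on dm6, as were the pooled replicates and an IDR-thresholded list. Per the file headers, peaks were called against a control that is not analysed here. Aligner, peak caller and the IDR cutoff are, for these lists, not given in the sources used here. Signal as the authors deposited it (column 7) has no stated normalization and only ordered peaks within a list. The deposited −log10 q-values were not used. The summit is the peak start plus the offset the authors deposited in column 10. Another label gives an age in hours too large for an embryo, so the sample source label was used for age. The labels call the samples biological replicates but name no separate collections, so p-values measure only the spread between these samples.

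The IDR list was the strongest part of the pooled list. TSSs came from Ensembl release 115 and sequence from RefSeq release 6, on 6 arms. A summit went to its nearest unique TSS and that TSS to its closest opposite-strand protein-coding TSS within 500 bp. Densities divide summits by the sequence within 500 bp of TSSs of each kind. G+C was taken over 200 bp and words over 100 bp around summits. Counting, matching and word searches were tested on simulated data (Python 3.11.15, numpy 2.4.6, scipy 1.17.1). Tests were exact sign-flip permutations over replicates. The 13 gene lists held 584 genes matched by symbol, 6 of them by an older symbol, and 3 further symbols were not matched. Members, words and lists were chosen with earlier results of these data known. Sequences were taken in order of rank, leaving out arm 2R. Named pairs were the 10 strongest, the 5 with most summits and the 3 strongest per replicate and per list. The 3 weakest and those with the closest and farthest TSSs were named as well. A pair that this rule takes is not reported here. Alternatives changed both distances, the TSSs used, the list length, the match distance, the windows and the replicates.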

Additional observations from a re-analysis of the deposited data

How the results depend on the processing

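Over 94 recomputed values, 66 kept their direction and stayed within a set limit, 24 moved more and 4 changed sign. The limit was the spread between replicates, except for the number of members, where it was a fixed fold change. With opposite TSSs within 1000 bp the 1380 members, against 1061, were thus counted among the 66. The density ratio of 2.59 ran from 2.18 without replicate 2 to 2.82 in the list cut at its median signal, and the share between the TSSs of 64.8% from 54.2% to 68.7%. With opposite TSSs within 250 bp there were 469 members, 14.1% of promoter summits, the difference in matched share was 3.03 and that in rank percentile 0.536 (both of opposite sign), that in G+C -2.16 and that in TATCGATA 4.21 percentage points. With 1000 bp the promoter share was 41.6% and TATCGATA 1.74. A summit window of 250 bp gave 37.4%, G+C -4.66 and TATCGATA 1.67, and one of 1000 bp gave TATCGATA 2.28. The 5′-most TSS of each gene gave 37.9% and TATCGATA 1.40. The summits above the median signal gave 599 members, 28.7% of pairs and TATCGATA 2.39. G+C over 400 bp differed by -2.51. TATCGATA within 100 bp differed by 4.39 and around the TSS by 5.68. Without 1 replicate, members and pairs were counted over summits matched in both others. Members then numbered 612 to 637 and pairs with a summit were 29.8% to 31.0%. The difference in matched share was still taken over the whole IDR list, against the replicates kept, and ran from -9.78 to 2.42. Fewer members and pairs are by construction without 1 replicate and above the median signal. The cause of the other moves was not tested. No paired analysis was possible because, with 1 group, no groups share replicate numbers, and the differences between kinds of promoter were taken within each replicate. Depth is unknown, the replicate lists stop at 30000 peaks, and neither a control track nor transcription was analysed here.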
